A study of Arabidopsis thaliana with 76 samples.

Results

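The 150 Arabidopsis genes described here have their highest transcript level at dawn (ZT0, the end of the night, sampled before lights on) in wild-type seedlings at both 27°C and 22°C, and they have the widest daily swing at 22°C of all genes with that pattern. They were chosen from the deposited table of TPM (transcript abundance, reads scaled by transcript length and by library size) of the wild-type time courses at 27°C and 22°C. A gene had to have its highest of 8 time points at ZT0 at both temperatures, with at least 10 TPM there at each. Of 33557 genes listed, 1650 met this, and the 150 with the largest ratio of highest to lowest (TPM + 1) at 22°C were kept. These TPM values chose the genes and are therefore given as a description without a test. The tests below use read counts from other seedlings, grown at 17°C or in liquid culture.

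All seedlings were of the Col-0 background and grew at constant temperature in short days of 8 hr light and 16 hr dark, and ZT counts hours from lights on. Wild-type (WT) seedlings at 27°C and at 22°C were sampled at ZT-4, 0, 1, 2, 4, 8, 12 and 16, with 1 library per time and temperature and no replicate. At 17°C, ss4-1 (a mutant of STARCH SYNTHASE 4) and WT were sampled at the same 8 times, and pgm (a starchless mutant of plastid phosphoglucomutase), the ss3/ss4 double mutant and the ss3/ss4/pgm triple mutant at ZT0 and ZT2, with 2 libraries per group. In liquid culture, WT seedlings kept at 27°C or 22°C received 30 µM DCMU, 50 µM DBMIB or the ethanol mock shortly before dawn, or were left untreated, and were sampled at ZT1, also with 2 libraries per group. DCMU stops electrons leaving photosystem II for the plastoquinone pool, and DBMIB stops them leaving that pool. Each library came from pooled seedlings, and nothing in the labels says that 2 libraries of a group came from separate sowings, so a p-value measures the spread between these libraries, which may be technical.

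Dawn is the point in a short day when the starch laid down in the light has been used up by the night's respiration, when the morning loop of the circadian clock is being switched on, and when growth genes released by darkness are still active. Genes induced by low sugar, many of them targets of the SnRK1 kinase and of bZIP factors, reach high levels when the reserve is short and drop within hours of light. The LNK coactivators and RVE factors belong to the morning part of the clock, and the light-harvesting antenna genes (LHC) are among its best known outputs.

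The 60 count libraries held between 3204754 and 19679912 reads in genes, with a median of 9800430. PGM1 read 10.4 and 13.2 CPM (counts scaled to library size with edgeR's TMM factors) in pgm and 14.3 and 13.5 in ss3/ss4/pgm at ZT0, against 96.4 and 96.5 CPM in WT, and SS3 read 24.8 and 28.4 CPM in ss3/ss4 against 109 and 101 CPM in WT. SS4 was not lower, with 60.9 and 58.1 CPM where the label is ss4-1 and 61.7 and 55.6 CPM in ss3/ss4, against 63.4 and 62.9 CPM in WT (edgeR adjusted p = 0.918 and 0.387), so its level does not check the ss4-1 labels, and every ss4-1 result below is that of libraries labelled so. In whole seedlings, fewer cells of a type and less RNA per cell cannot be told apart. Of the 150 genes, 140 passed the low-count filter in the ss4-1 and WT time course, 139 in the starch mutants and 138 in liquid culture. 7 genes had 0 counts in every library although their TPM were not 0, AT2G44130, AT4G38820, CIB1, BZIP1, AT4G26290, AT1G23052 and AT2G33815, and COL1 had 0.398% of the counts its TPM implied, and it stays in the counts of genes given below, where it is 1 of those that rose at ZT0 in every starch mutant, for example with 1.51 and 4.70 CPM in pgm against 0.344 and 0.478 CPM in WT.

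At 22°C the gene with the largest ratio of highest to lowest (TPM + 1), 341, was AT4G36850, annotated as a PQ-loop repeat protein, with 472 TPM at ZT0 and 0.387 TPM at ZT8. The light-harvesting genes LHCB2.1, LHCB2.3 and LHCB2.2 had ratios of 287, 256 and 222, and near-identical members of that family can share reads. LNK2 (AT3G54500), a coactivator of the morning clock, stood at 818 TPM at ZT0 at 27°C and 755 TPM at 22°C, and at its lowest, at ZT12, at 2.97 TPM at 27°C and 1.92 TPM at 22°C. SEN1/DIN1, a marker of darkness and senescence, reached 1505 TPM at ZT0 at 27°C and 558 TPM at 22°C. ASN1/DIN6 (AT3G47340), the dark-induced asparagine synthetase that stores nitrogen when carbon is short, reached 916 TPM at 27°C and 291 TPM at 22°C. The last genes inside the limit were LHCA4 and AT4G16008, with ratios of 8.40 and 8.37, and the first outside was LHB1B2 with 8.28.

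The dawn level was followed by a steep drop at lights on. The median of the 150 genes at 22°C was 44.6 TPM at ZT-4, 95.4 at ZT0, 7.76 at ZT1, 15.3 at ZT2, 14.6 at ZT4, 7.88 at ZT8, 24.3 at ZT12 and 28.5 at ZT16. The lowest time point fell in the light for 129 genes, 66 of them at ZT1 and 46 at ZT8, and in the dark for 21. The 21 genes lowest in the dark include LNK2, LNK3, LNK4, PIF5, HFR1, CDF2, COL5 and the light-harvesting genes, which kept much of their level through the morning. LNK2, for example, still held 372 TPM at ZT1 and 252 TPM at ZT2, whereas TPS8, a class II trehalose-phosphate synthase-like protein, held 119 TPM at ZT0 and 2.4 TPM at ZT1.

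At ZT0 the median was 130 TPM at 27°C and 95.4 TPM at 22°C, and 119 of the 150 genes were higher at 27°C, with a median log2 difference of (TPM + 1) of 0.54. Over the 15794 genes with at least 10 TPM at a time point the median was 0.09 and 60.0% were higher. The difference was also present at ZT16, where 141 of the 150 were higher at 27°C, with a median of 0.57 against 0.04 over those 15794 genes, and was absent at ZT2, where 57 were higher and the median was -0.12. With 1 library per time these differences have no replicate check. HFR1, a light-signalling factor, had 160 TPM at ZT0 at 27°C and 62 TPM at 22°C, and CAB2, a light-harvesting gene, had 2807 TPM at 27°C and 3854 TPM at 22°C, so the direction was not shared by every gene.

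**Figure D1:**
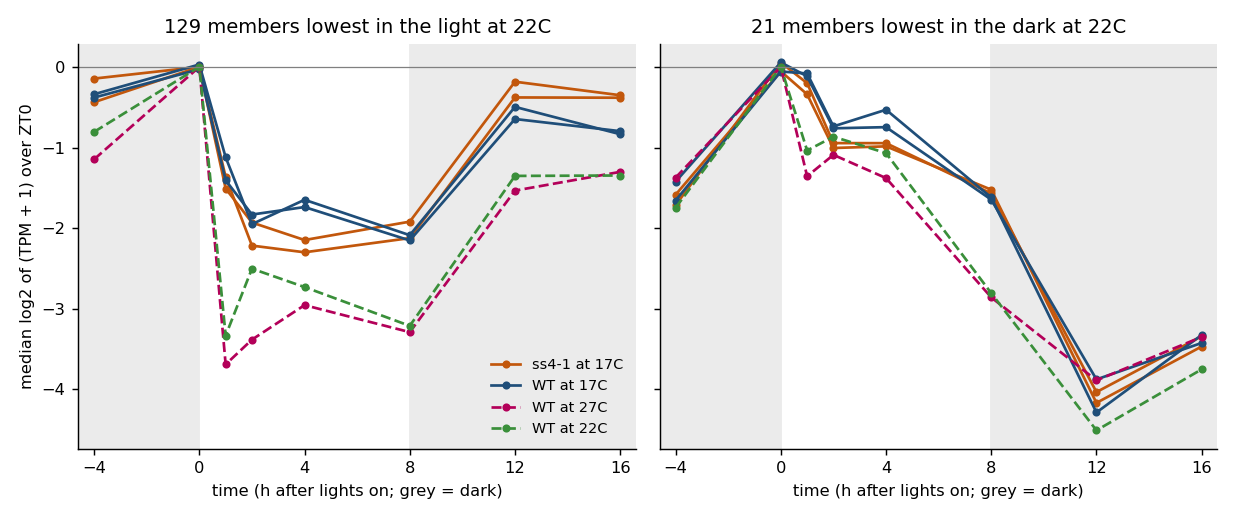
Median log2 level relative to ZT0 over the day, against ZT in hours. Separate panels show the 129 genes lowest in the light and the 21 lowest in the dark at 22°C. Courses are WT at 27°C and at 22°C (1 library per point, no replicate), and ss4-1 and WT at 17°C (2 libraries per time). In TPM, the WT medians over all 150 genes were 130 at 27°C and 95.4 at 22°C at ZT0, and 7.76 at 22°C at ZT1. The WT values at 27°C and 22°C chose the genes.

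All lists of pathway genes were chosen with earlier results of these data known. Their shares, beside 150 of all 33557 genes, are therefore a description only. Of the lists examined, the sugar-starvation list was the most represented. It placed 15 of its 32 genes among the 150, namely ASN1/DIN6, SEN1/DIN1, SEN5, DIN10 (a raffinose synthase), MCCA and BCAT2 (enzymes of branched-chain amino acid breakdown), TPS8, TPS9, TPS10 and TPS11, BXL1, AKINbeta1 (a subunit of SnRK1), BZIP1, BZIP63 and AT5G22920. The morning clock list placed 4 of 14 (RVE4, LNK2, LNK3 and LNK4), PIFs and dawn growth genes 4 of 18 (PIF5, HFR1, ATHB2 and IAA29), CONSTANS-like and CDF flowering factors 3 of 13 (COL1, COL5 and CDF2), starch breakdown 1 of 21 (BAM9) and chlorophyll synthesis 1 of 14 (CAO). Later-phased clock factors, nitrate and sulfate assimilation, cold response, heat shock and root markers placed none. A further 8 genes encode light-harvesting proteins (LHCB2.1, LHCB2.2, LHCB2.3, CAB2, LHB1B1, LHCB3, LHCB4.2 and LHCA4), a group picked after the values were seen. By product name such genes made 5.33% of the 150 genes and 0.0984% of nuclear protein-coding genes with a product name. Trehalose metabolism was named in the product of 4 genes. The genes lay on all 5 chromosomes (39, 18, 29, 23 and 40 genes) with 1 in the chloroplast genome, 146 of them were protein coding, and 57 overlapped another gene, for which reads cannot be told apart if strand was not used in counting.

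Promoters of 146 of the genes were taken from RefSeq (TAIR10.1), 250 bases before to 50 after the annotated start, and searched on both strands for short motifs named for clock, light and sugar responses. The G-box CACGTG, which PIF and bZIP factors bind, stood in 15.8% of the 146 promoters, against 7.68% of all 27443 promoters, and in 38.1% of those of the 21 genes lowest in the dark. The I-box GATAAG, found in many light-regulated promoters, stood in 26.7% against 14.6%. Of the 15 sugar-starvation promoters, 8 held an I-box and 1, that of ASN1/DIN6, a G-box. The protein box GGCCCA, common in ribosomal protein promoters, stood in 6.16% against 15.5%. Among the 15399 promoters of genes with at least 10 TPM at a time point, the G-box stood in 9.05%, the I-box in 15.4% and the protein box in 20.3%. The other motifs lay nearer to their shares in all promoters, namely the evening element AAAATATCT with 2.05% against 2.82%, the CCA1-binding site AAAAATCT with 8.22% against 7.88%, the morning element CCACAC with 10.3% against 7.77% and the HUD motif CACATG with 13.7% against 12.9%. The core ACGT, which lies inside every G-box and was searched after the genes were known, stood in 56.2% against 49.9%. A match is only a match of letters.

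The promoters of 1 morning clock gene, 3 sugar-starvation genes and 1 light-harvesting gene are shown because the results below turn on these groups. Each runs 5′ to 3′ on the gene's own strand, with every match to the 7 motifs, on either strand, in capitals.
LNK2, chr3:20179021-20179320, minus strand, with a HUD motif and a G-box: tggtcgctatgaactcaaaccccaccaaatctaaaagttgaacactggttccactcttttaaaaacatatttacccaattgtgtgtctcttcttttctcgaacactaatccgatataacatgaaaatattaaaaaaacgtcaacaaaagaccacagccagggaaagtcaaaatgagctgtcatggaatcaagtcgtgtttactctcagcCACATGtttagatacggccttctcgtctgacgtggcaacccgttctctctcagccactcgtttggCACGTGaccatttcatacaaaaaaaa
ASN1/DIN6, chr3:17441382-17441681, minus strand, with 2 G-boxes and 2 I-boxes: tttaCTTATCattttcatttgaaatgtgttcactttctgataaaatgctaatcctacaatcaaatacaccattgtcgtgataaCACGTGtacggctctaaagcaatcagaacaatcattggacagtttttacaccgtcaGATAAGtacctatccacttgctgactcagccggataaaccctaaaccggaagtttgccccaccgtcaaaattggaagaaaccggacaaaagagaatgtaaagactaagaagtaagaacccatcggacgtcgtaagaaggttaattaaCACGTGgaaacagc
SEN1/DIN1, chr4:16944628-16944927, plus strand, with 3 protein boxes and 2 I-boxes: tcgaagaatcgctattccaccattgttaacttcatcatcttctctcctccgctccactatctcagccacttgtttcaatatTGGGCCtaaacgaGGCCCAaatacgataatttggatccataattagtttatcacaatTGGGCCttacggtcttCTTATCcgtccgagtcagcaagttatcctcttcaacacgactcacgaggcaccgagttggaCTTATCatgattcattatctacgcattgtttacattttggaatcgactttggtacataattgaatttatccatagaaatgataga
TPS11, chr2:8108648-8108947, plus strand, with a morning element and 2 I-boxes: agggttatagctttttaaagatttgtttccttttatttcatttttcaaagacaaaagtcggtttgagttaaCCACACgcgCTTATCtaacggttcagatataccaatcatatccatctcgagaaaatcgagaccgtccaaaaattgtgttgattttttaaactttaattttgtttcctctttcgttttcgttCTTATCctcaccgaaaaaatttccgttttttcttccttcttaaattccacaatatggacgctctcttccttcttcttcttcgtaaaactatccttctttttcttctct
CAB2, chr1:10475920-10476219, minus strand, with a CCA1-binding site: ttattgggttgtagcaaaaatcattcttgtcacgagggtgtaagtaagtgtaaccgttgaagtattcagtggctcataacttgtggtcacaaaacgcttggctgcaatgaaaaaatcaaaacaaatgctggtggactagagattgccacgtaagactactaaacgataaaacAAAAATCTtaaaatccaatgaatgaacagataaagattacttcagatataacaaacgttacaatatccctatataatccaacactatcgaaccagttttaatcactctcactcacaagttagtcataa

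The first question put to data the choice did not use was whether the dawn peak was kept at 17°C, in the libraries labelled ss4-1 and in WT. By the mean CPM of 2 libraries, 73 of the 140 genes measured were highest at ZT0 in ss4-1 (52.1%) and 86 in WT (61.4%), while 14.4% of all 20692 genes tested in ss4-1 and 13.5% in WT were. Among the other 1482 genes with a ZT0 peak at 27°C and 22°C that were measured, 53.2% peaked at ZT0 in ss4-1 and 54.3% in WT at 17°C. In WT the 140 genes stood above those others, also in each replicate course alone. In ss4-1 the order turned with the course used. There 52.1% of the 140 genes stood against 49.1% of the others in replicate 1, and 53.6% against 46.7% in replicate 2. Each replicate course taken alone gave the peak at ZT0 in both replicates for 62 genes in ss4-1 and 73 in WT. A total of 65 genes peaked at ZT0 in both genotypes, 8 in ss4-1 but not WT, and 21 in WT but not ss4-1. This difference between the genotypes was not tested.

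Of the genes not highest at ZT0 at 17°C, 37 in ss4-1 and 22 in WT were highest at ZT12, 4 hr into the night, 13 and 14 at ZT-4 and 9 and 14 at ZT1. Of all 20692 genes tested, 2982 in ss4-1 and 3530 in WT were highest at ZT12, 2136 and 1793 at ZT-4 and 2027 and 2130 at ZT1. By these means the share at ZT12 exceeded that over all genes in ss4-1 but not in WT. In replicate 1 alone ZT12 held 45 of the 140 genes in ss4-1 and 20 in WT, and in replicate 2 it held 28 and 20. By the means, sugar-starvation genes made up 7 of the 37 in ss4-1 and 7 of the 22 in WT, out of 14 measured, with 3 in ss4-1 and 6 in WT highest at ZT0. SEN1/DIN1 had 362 and 256 CPM at ZT12 and 51.54 and 50.03 CPM at ZT0 in ss4-1, against 183 and 134 CPM at ZT12 and 75.7 and 50.8 CPM at ZT0 in WT. BCAT2 had 93.28 and 89.95 CPM at ZT12 and 7.234 and 9.002 CPM at ZT0 in ss4-1, against 62.6 and 36.6 CPM at ZT12 and 21.4 and 13.1 CPM at ZT0 in WT. For both genes the ZT12 libraries of each genotype lay above all its ZT0 libraries. Of the genes lowest in the dark, 18 of 21 were highest at ZT0 in ss4-1 and 14 of 21 in WT, where the other 7 peaked at ZT1, and of the genes lowest in the light 55 of 119 in ss4-1 and 72 of 119 in WT. In WT replicate 1 alone these were 12 of 21 and 77 of 119, and the difference was not tested. MYBL2, a repressor of anthocyanin synthesis, peaked at ZT8 in ss4-1, with 29.9 and 21.6 CPM against 9.80 and 7.23 CPM at ZT0, and at ZT4 in WT, with 39.2 and 26.6 CPM against 15.7 and 10.5 CPM at ZT0.

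**Figure D2:**
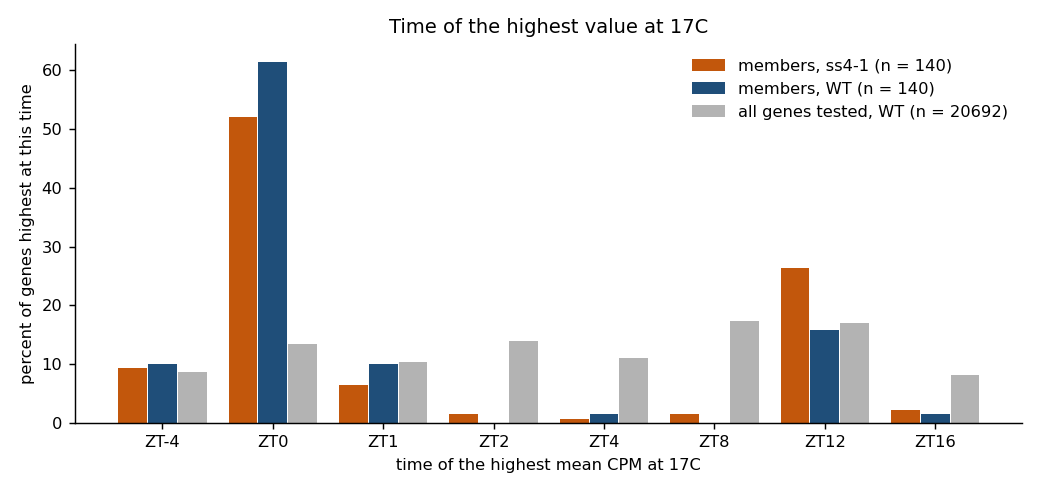
Percent of genes whose mean CPM at 17°C was highest at each ZT (2 libraries per time). Bars are the 140 measured genes in ss4-1 and in WT, and all 20692 genes tested in WT. ZT0 held 73 of the 140 genes in ss4-1 and 86 in WT, and ZT12 held 37 and 22.

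The median ratio of highest to lowest (TPM + 1) over all 150 genes was 9.25 in ss4-1 and 6.45 in WT at 17°C, and 16.7 in WT at 27°C and 14.6 at 22°C. The 22°C ratios chose the genes, so the smaller medians at 17°C are no result. BAM9 had a ratio of 44.9 in WT at 17°C, 11.7 at 27°C and 25.4 at 22°C.

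From ZT-4 to ZT0, 48 of the 140 genes rose in WT and 0 fell (edgeR quasi-likelihood test, Benjamini-Hochberg adjusted p under 0.05), against 2.11% of all genes tested that rose and 2.02% that fell. Beside the 0, 79 of the 140 had an unadjusted p under 0.05 in either direction. In ss4-1, 46 rose and 1 fell, against 2.9% and 2.29%, and the one that fell was PDF1.4, a defensin-like protein. The median log2 change was 0.45 in ss4-1 and 0.54 in WT, against -0.01 over all genes in each. The light-harvesting genes rose together, 8 of 8 in each genotype, with median log2 changes of 1.82 in ss4-1 and 1.42 in WT. Of the 4 morning clock genes, 4 rose in ss4-1 and 3 in WT. Without replicate 1 the calls dropped to 29 in ss4-1 and 27 in WT, and without replicate 2 to 32 in ss4-1 and 23 in WT.

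LNK2 had 1304 and 1170 CPM at ZT0 and 152 and 158 CPM at ZT-4 in ss4-1, against 1216 and 1170 CPM at ZT0 and 184 and 152 CPM at ZT-4 in WT. In WT that is a log2 change of 2.83 (SE 0.13, adjusted p = 1.49e-13 by edgeR), and LNK4 rose by more, 3.86 (SE 0.16). PIF5, a growth-promoting factor that light degrades, had 135 and 136 CPM at ZT0 and 35.8 and 30.2 CPM at ZT-4 in ss4-1, against 141 and 136 CPM at ZT0 and 38.9 and 31.5 CPM at ZT-4 in WT. The sugar-starvation genes did not share this late-night rise, with 1 of 14 rising in ss4-1 and 2 of 14 in WT and medians of -0.14 and 0.12.

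From ZT0 to ZT2, 124 of the 140 genes fell and 2 rose in ss4-1, against 18.4% and 18.7% of all genes, and 122 fell and 0 rose in WT, against 15.9% and 15.9%. By ZT8, 127 had fallen and 2 risen in ss4-1, against 24% and 24.3%, and 131 had fallen and 1 risen in WT, against 21.8% and 21.9%. The median log2 changes at ZT8 were -2.51 in ss4-1 and -2.58 in WT. The genes above their ZT0 level were THA1 (a threonine aldolase) and PDS1 (4-hydroxyphenylpyruvate dioxygenase) at ZT2 in ss4-1, THA1 and MYBL2 at ZT8 in ss4-1, and MYBL2 at ZT8 in WT. Those 5 calls were named because they ran against the rest.

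The steepest fall by ZT8 in WT was that of AT4G36850, with 9.66 and 7.92 CPM at ZT8 and 483 and 506 CPM at ZT0 in ss4-1, against 4.47 and 5.81 CPM at ZT8 and 434 and 393 CPM at ZT0 in WT (WT log2 change -6.34, SE 0.35). BAM9, a non-catalytic beta-amylase, stood at 4.67 and 3.03 CPM at ZT8 and 261 and 284 CPM at ZT0 in ss4-1, against 4.7 and 3.5 CPM at ZT8 and 235 and 255 CPM at ZT0 in WT (WT log2 change -5.89, SE 0.17). At ZT2 the sharpest fall in WT was that of BBX27, a B-box factor (-4.49, SE 0.21). All 14 sugar-starvation genes measured fell by ZT2 in each genotype, with medians of -3.09 in ss4-1 and -2.57 in WT. Fewer of the light-harvesting genes fell by ZT2, 6 of 8 in ss4-1 and 4 of 8 in WT. LHCB2.1 still had 1297 and 1367 CPM at ZT2 in ss4-1 and 1417 and 1241 CPM in WT, and its low levels came at night, at ZT16, with 12.09 and 10.99 CPM in ss4-1 and 25.9 and 15.9 CPM in WT.

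**Figure D3:**
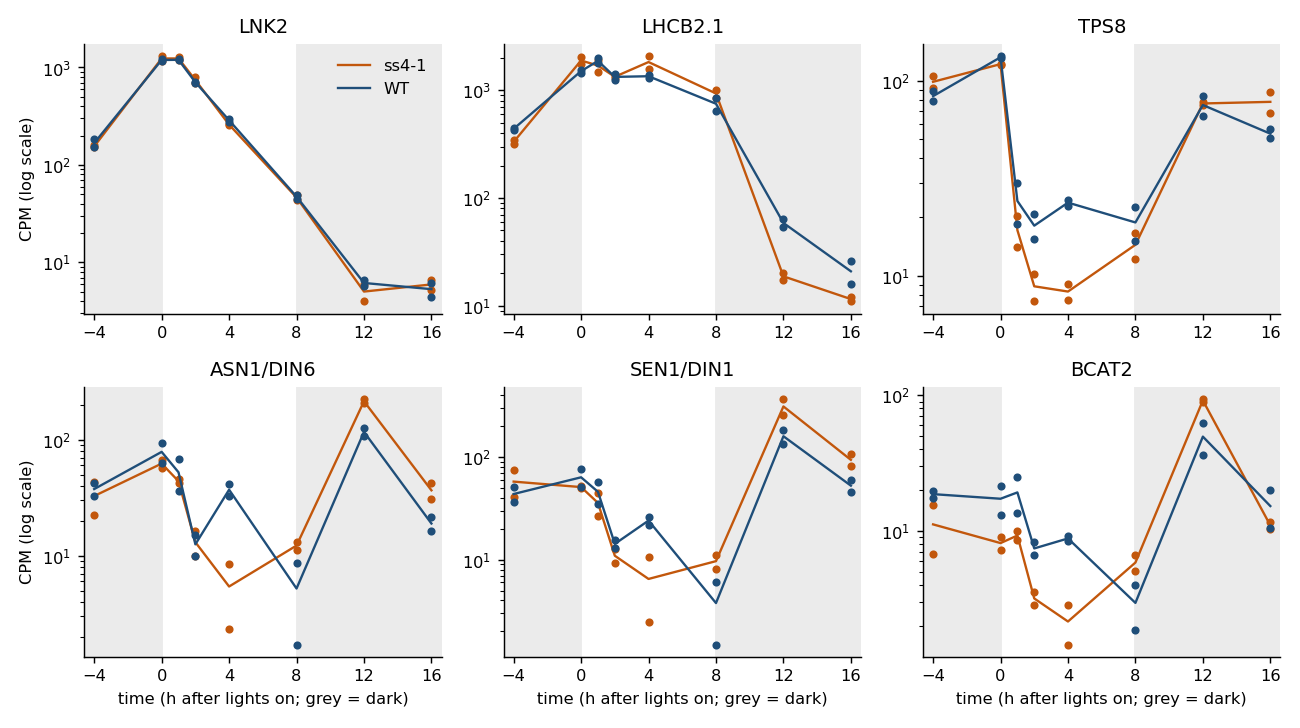
CPM at 17°C over the day on a log axis for LNK2, LHCB2.1, TPS8, ASN1/DIN6, SEN1/DIN1 and BCAT2, with ss4-1 in orange and WT in blue (lines are means, points the 2 libraries). LNK2 and LHCB2.1 stayed high through the morning, while TPS8, ASN1/DIN6, SEN1/DIN1 and BCAT2 dropped after dawn, and the last 3 were highest at ZT12.

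The second comparison set the libraries labelled ss4-1 against WT at each time of day at 17°C. At dawn 1 of 140 genes was lower and 0 higher, against 0.0193% and 0.00967% of all genes. That gene was THA1, with 4.37 and 4.87 CPM in ss4-1 against 22.0 and 15.9 CPM in WT (log2 difference -2.02, SE 0.35, adjusted p = 0.0203 by edgeR), and leaving out either replicate ended this call. At ZT0, 20 of the 140 had an unadjusted p under 0.05, and DESeq2 also called 1. At ZT-4 none was higher or lower, against 0.029% and 0.0193% of all genes (21 with an unadjusted p under 0.05, 0 by DESeq2), and at ZT1 none, against 0.0483% and 0.00483% (25, and 0 by DESeq2). At ZT8 none was called either, against 0.00967% and 0% (16, and 0 by DESeq2).

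At ZT4, the middle of the light period, 27 of the 140 genes were lower in ss4-1 and 0 higher, against 2.54% and 2.88% of all genes, with a median log2 difference of -0.58 against 0.00 over all genes. Of these 27, 13 were sugar-starvation genes, 13 of the 14 measured, with a median of -1.51, while 7 of the 17 other genes of that list were lower, with a median of -0.52. The morning clock genes had a median of 0.07 and the light-harvesting genes 0.25, with none called. No gene was higher at an adjusted p under 0.05, 61 of the 140 had an unadjusted p under 0.05 in either direction, and DESeq2 called 37.

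ASN1/DIN6 had 8.51 and 2.34 CPM at ZT4 in ss4-1, against 33.0 and 41.1 CPM in WT, and the libraries did not overlap (log2 difference -2.88, SE 0.51, adjusted p = 0.00269 by edgeR). Of all 20692 genes tested, 5193 had both ss4-1 libraries below both WT libraries at ZT4, and 5118 had both above. DIN10 had 42.0 and 29.2 CPM in ss4-1 against 114 and 124 CPM in WT (-1.76, SE 0.21, adjusted p = 2.98e-05). SEN5 had 16.7 and 10.9 CPM against 48.8 and 54.6 CPM, and TPS9 had 11.6 and 8.63 CPM against 22.1 and 28.9 CPM. At ZT2 ASN1/DIN6 had 16.3 and 9.87 CPM in ss4-1, against 9.97 and 15.1 CPM in WT, and there the libraries overlapped. With replicate 2 left out no gene was called at ZT4, and with replicate 1 left out 20 were, 16 of them among the 27. Heat shock genes, none of them among the 150, were higher in ss4-1 at ZT4 for 6 of the 8 listed, with a median of 2.03, and root markers were lower for 2 of 9, with summed levels of 1446 to 1973 CPM in ss4-1 and 1806 to 1838 CPM in WT. Their part in the result was not tested.

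At ZT2, 4 genes were lower in ss4-1 and 0 higher, against 0.0822% and 0.449% of all genes, with 46 at an unadjusted p under 0.05 and 8 called by DESeq2. They were AT5G22920, SEN5, DIN10 and AT5G19190, of which the first 3 are on the sugar-starvation list, and none was called without replicate 2. At ZT12, early in the night, 12 were higher and 3 lower, against 0.981% and 2.01%, with a median of 0.33. Those higher included SEN5 and AT5G22920, OXS3 (an oxidative stress protein) and RMA2 (a ubiquitin ligase). OXS3 had 30.4 and 31.1 CPM in ss4-1 against 16.3 and 12.9 CPM in WT (log2 difference 1.08).

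The 3 genes lower at ZT12 were LHCB2.1, LHCB2.2 and LHCB2.3, close relatives that may share reads. LHCB2.1 had 20.01 and 17.51 CPM in ss4-1 against 63.9 and 53.4 CPM in WT (log2 difference -1.64, SE 0.20, adjusted p = 0.000191 by edgeR). The count of 15 at ZT12 rested on the libraries used: it was 37 without replicate 1, 1 without replicate 2 and 0 when the ZT12 libraries alone were fitted. Root markers at ZT12 were lower for 3 of 9, with summed levels of 1590 to 1965 CPM in ss4-1 and 1824 to 2547 CPM in WT, and their part was not tested.

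At ZT16, 1 gene was higher and 0 lower, against 0.0193% and 0% of all genes. It was RMA2, with 26.9 and 29.5 CPM in ss4-1 against 15.1 and 15.2 CPM in WT, and leaving out either replicate ended the call. Here 111 of the 140 differences were above 0, with a median of 0.37, and 59 had an unadjusted p under 0.05. DESeq2 called 5, with RMA2 not among them, and a fit of the ZT16 libraries alone called 39, with RMA2 among them. The change from ZT0 to ZT8 differed between ss4-1 and WT for 1 gene, THA1, by 3.03 (SE 0.50, adjusted p = 0.0265), and for none in the other direction, against 0.0145% and 0% of all genes, and this call was also lost without either replicate.

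**Figure D4:**
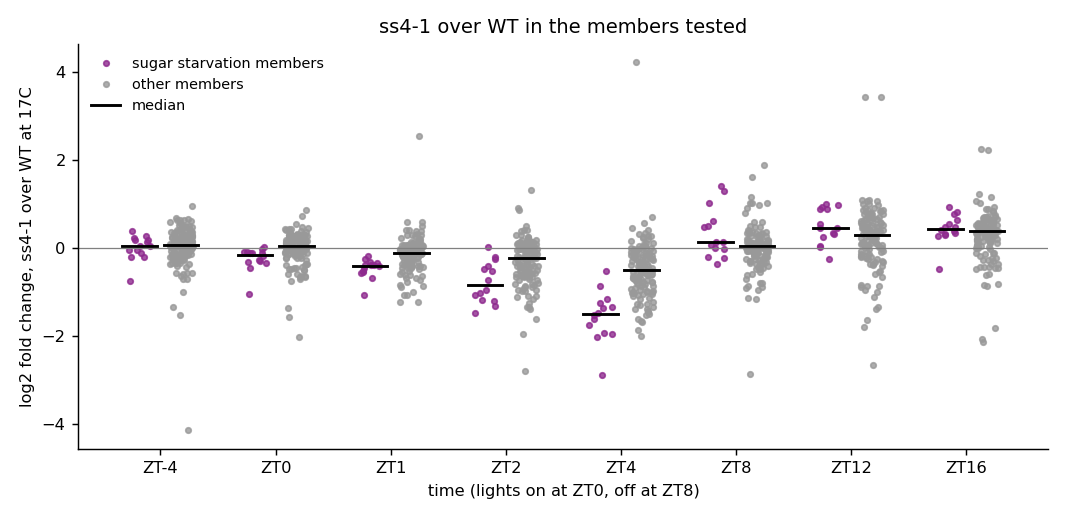
Log2 difference of ss4-1 over WT at each ZT at 17°C for the sugar-starvation genes and the other genes measured among the 140 (black bars are medians). At ZT4 the sugar-starvation median was -1.51, and at ZT12 it was 0.46.

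The third comparison asked how high the dawn genes stood at ZT0 in the starch mutants. Most were higher: 117 of 139 rose and 14 fell in pgm, 107 rose and 14 fell in ss3/ss4, and 115 rose and 13 fell in ss3/ss4/pgm, all relative to the same 2 WT libraries. The WT libraries used here and at ZT2 are those of the ss4-1 time course. The labels do not say whether the starch mutants were grown or sequenced with them, so genotype and batch cannot be told apart. Over all 20130 genes tested, 28.1% rose and 28.9% fell in pgm, 30.4% and 28.1% in ss3/ss4, and 30.6% and 30.7% in ss3/ss4/pgm. The median log2 difference was 1.488 in pgm, 1.245 in ss3/ss4 and 1.496 in ss3/ss4/pgm, against -0.07, 0.01 and -0.04 over all genes. A set of 105 genes rose and 11 fell in all 3 mutants, which share the WT libraries. The genes lowest in the light had medians of 1.88, 1.54 and 1.86, and the 21 lowest in the dark 0.81, 0.17 and 0.58.

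The sugar-starvation genes rose without exception, 14 of 14 in each mutant, with medians of 3.31 in pgm, 2.82 in ss3/ss4 and 3.24 in ss3/ss4/pgm. The genes of that list outside the 150 rose too, 16, 17 and 16 of 17. ASN1/DIN6 had 3466 and 3652 CPM in pgm, 2524 and 3935 CPM in ss3/ss4 and 3185 and 3419 CPM in ss3/ss4/pgm, against 93.5 and 63.3 CPM in WT. Its 67.1 and 57.3 CPM in ss4-1 lay with WT. The log2 difference over WT was 5.49 (SE 0.25, adjusted p = 2.9e-12 by edgeR) in pgm. SEN1/DIN1 had 3263 and 4299 CPM in pgm, 1973 and 2613 CPM in ss3/ss4 and 3233 and 2776 CPM in ss3/ss4/pgm, against 75.7 and 50.8 CPM in WT.

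BCAT2, which breaks down branched-chain amino acids, had the largest rise in ss3/ss4, with 738 and 683 CPM in pgm, 712 and 861 CPM in ss3/ss4 and 819 and 728 CPM in ss3/ss4/pgm, against 21.4 and 13.1 CPM in WT (log2 differences 5.36, 5.52 and 5.45). Genes outside the lists rose as well. THA1, the threonine aldolase that was low at dawn in ss4-1, had 272 and 237 CPM in pgm, 352 and 350 CPM in ss3/ss4 and 232 and 225 CPM in ss3/ss4/pgm, against 22.0 and 15.9 CPM in WT. STP1, a hexose importer of the plasma membrane named after its values were seen, had 1263 and 1313 CPM in pgm, 599 and 780 CPM in ss3/ss4 and 1267 and 1164 CPM in ss3/ss4/pgm, against 129 and 108 CPM in WT. In none of these 5 genes did a mutant library overlap a WT library. Of all 20130 genes, 7532 in pgm, 7945 in ss3/ss4 and 8276 in ss3/ss4/pgm had both mutant libraries above both WT libraries. Both lay below in 8366, 7777 and 8033 genes, so a lack of overlap was common.

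Clock and flowering genes moved less but as regularly. The 4 morning clock genes rose in all 3 mutants, with medians of 0.97, 0.97 and 0.93. LNK2 had 2097 and 2093 CPM in pgm, 1935 and 1992 CPM in ss3/ss4 and 2096 and 2148 CPM in ss3/ss4/pgm, against 1216 and 1170 CPM in WT (0.80, SE 0.12 in pgm). CDF2, a DOF factor that represses flowering, rose by 1.283, 1.533 and 1.298, PIF5 by 1.49, 1.00 and 1.64, and BAM9 by 1.62, 1.40 and 1.74 on the log2 scale. The light-harvesting genes differed among the mutants: 7 of 8 rose in pgm, 0 rose and LHCB3 fell in ss3/ss4, and 4 rose in ss3/ss4/pgm, with medians of 0.82, -0.03 and 0.49. LHCB2.3 had 1477 and 2047 CPM in pgm, 714 and 984 CPM in ss3/ss4 and 1602 and 1593 CPM in ss3/ss4/pgm, against 852 and 905 CPM in WT. Whether the mutants differ from each other was not tested.

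The 11 genes lower in all 3 mutants were AT3G55240, GASA6, EXPA8, SAUR22, AT5G50335, AT3G19850, IAA29, AT4G34770, AT5G02760, ATHB2 and AT1G52190. Among them EXPA8 is a cell-wall expansin, IAA29 and SAUR22 are auxin-responsive genes, GASA6 is a gibberellin-regulated protein and ATHB2 a shade-avoidance factor. EXPA8 had 12.9 and 9.40 CPM in pgm, 38.9 and 28.7 CPM in ss3/ss4 and 14.7 and 12.6 CPM in ss3/ss4/pgm, against 67.7 and 78.1 CPM in WT (-2.67, -1.10 and -2.47). AT5G02760, a protein phosphatase 2C, had 3.59 and 2.56 CPM in pgm, 3.97 and 2.60 CPM in ss3/ss4 and 4.07 and 2.80 CPM in ss3/ss4/pgm, against 34.8 and 36.0 CPM in WT. The list of PIFs and dawn growth genes did not move as one, with PIF5 up and ATHB2 and IAA29 down in all 3 mutants, while HFR1 rose in ss3/ss4 alone (log2 differences -0.21 in pgm, 0.78 in ss3/ss4 and -0.20 in ss3/ss4/pgm). Of its 13 other genes tested, 7 fell in each mutant. Root markers, summed over the 9 listed, stood at 1303 to 1328 CPM in pgm, 1399 to 1601 CPM in ss3/ss4 and 1086 to 1233 CPM in ss3/ss4/pgm, against 1909 to 1942 CPM in WT, with 5, 7 and 3 of 9 lower, and their part was not tested.

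By ZT2, after 2 hr of light, less of the difference was left. In pgm 40 of the 139 genes were higher and 29 lower than in WT, against 19.4% and 21% of all genes, and in ss3/ss4/pgm 44 were higher and 23 lower, against 19.7% and 21.7%. In ss3/ss4, 76 were higher and 5 lower, against 26.6% and 27.4%. The median log2 differences were -0.01 in pgm, 0.57 in ss3/ss4 and 0.14 in ss3/ss4/pgm, and 0.20 in pgm without replicate 2. Without replicate 1 or without replicate 2 of every group, 45 and 43 genes in pgm and 43 and 47 in ss3/ss4/pgm were called in either direction. The change from ZT0 to ZT2 was more negative than in WT for 92 genes in pgm and less negative for 9, against 16.8% and 14.4% of all genes. In ss3/ss4 it was more negative for 63 and less for 14, against 12.9% and 9.35%, and in ss3/ss4/pgm more negative for 89 and less for 9, against 17.8% and 15.7%. Without replicate 2 the ss3/ss4 count in both directions dropped to 49.

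The sugar-starvation genes showed the spread. SEN1/DIN1 remained high at ZT2, with 714 and 606 CPM in pgm, 672 and 737 CPM in ss3/ss4 and 669 and 781 CPM in ss3/ss4/pgm, against 12.9 and 15.5 CPM in WT (5.52, 5.61 and 5.64). TPS8 went below WT in pgm and ss3/ss4/pgm, with 6.17 and 5.65 CPM in pgm, 24.1 and 28.6 CPM in ss3/ss4 and 7.71 and 6.72 CPM in ss3/ss4/pgm, against 15.5 and 20.6 CPM in WT (-1.65, 0.50 and -1.33). In counts, 6 of 14 were higher and 4 lower in pgm, 13 higher and 0 lower in ss3/ss4, and 7 higher and 3 lower in ss3/ss4/pgm. BAM9 likewise had 51.1 and 42.7 CPM in pgm and 52.3 and 53.3 CPM in ss3/ss4/pgm, against 90.2 and 105 CPM in WT, while ss3/ss4 had 94.2 and 100 CPM. BBX27 was higher most of all in ss3/ss4, with 31.1 and 31.3 CPM against 2.83 and 2.88 CPM in WT (3.43, SE 0.17). The chloroplast gene ATCG00710 had 113 and 84.7 CPM in pgm and 108 and 108 CPM in ss3/ss4/pgm, against 2.56 and 3.48 CPM in WT. Organelle genes took 7.6% to 10.9% of the counts of those 4 mutant libraries. At ZT2 they took 0.70% and 0.56% in WT and 0.85% and 1.03% in ss3/ss4, and their part was not tested.

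**Figure D5:**
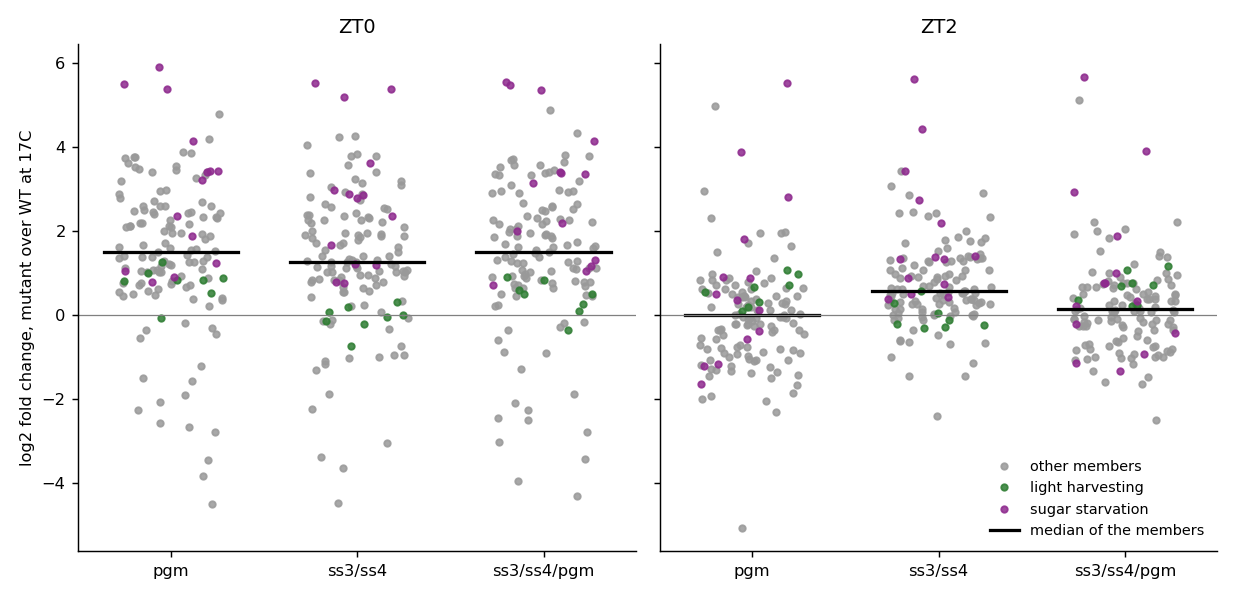
Log2 difference over WT at ZT0 and at ZT2 in pgm, ss3/ss4 and ss3/ss4/pgm for the 139 genes measured, with sugar-starvation genes in purple, light-harvesting genes in green, others in grey and medians in black. Medians at ZT0 were 1.488, 1.245 and 1.496, and at ZT2 -0.01, 0.57 and 0.14.

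The last comparison set seedlings treated with a photosynthesis inhibitor against the mock at ZT1 in liquid culture. Before its results, the labels need a caution: libraries with the same inhibitor label did not resemble each other. At 27°C the libraries labelled DCMU replicate 1 and DBMIB replicate 2 correlated with r = 0.987 over 20291 genes and DCMU replicate 2 and DBMIB replicate 1 with r = 0.992, while the 2 DCMU libraries correlated with r = 0.873 and the 2 DBMIB libraries with r = 0.871. At 22°C the corresponding values were 0.992 and 0.989 across the labels and 0.892 and 0.888 within them. ASN1/DIN6 shows the pattern, with 136 and 630 CPM in the libraries labelled DCMU and 803 and 198 CPM in those labelled DBMIB at 27°C, in replicate order, against 141 and 150 CPM in the mock. Whether the inhibitor labels of these libraries hold was not tested, and the counts below are given for the labels as they stand.

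With those labels, 24 of 138 genes were higher and 0 lower with DCMU at 27°C, against 2.86% and 3.62% of all genes, and 25 higher and 0 lower with DBMIB at 27°C, against 2.85% and 3.72%. At 22°C, 10 were higher and 0 lower with DCMU, against 1.44% and 2.05%, and 2 higher and 0 lower with DBMIB, against 0.557% and 1.1%. Beside these, 49, 52, 41 and 37 genes had an unadjusted p under 0.05, and DESeq2 called 31, 39, 31 and 17. Every one of the 4 counts became 0 with either replicate left out, or with only the compared groups fitted. Between untreated seedlings at 27°C and at 22°C none was higher or lower, against 0.0148% and 0.00493% of all genes, with 19 at an unadjusted p under 0.05 and 5 called by DESeq2. With only the untreated libraries fitted, 63 were called, so the 0 depended on the shared fit. The share of all genes called in that smaller fit is not given here. The shared spread (edgeR common dispersion) was 0.142 in the liquid culture fit. It was 0.0108 in the ss4-1 and WT fit and 0.00811 in the starch mutant fit.

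Some genes were higher in all 8 inhibitor libraries than in all 4 mock libraries, whatever the label. How many of all genes were so was not counted. In single comparisons both inhibitor libraries lay above both mock libraries in 4267 to 4784 of all 20291 genes and below in 5105 to 5758. AT1G22890, an uncharacterized protein, had 30.6 and 24.3 CPM with DCMU and 23.4 and 33.3 CPM with DBMIB at 27°C, against 4.22 and 6.37 CPM in the mock, and 28.6 and 25.3 CPM with DCMU and 24.02 and 27.52 CPM with DBMIB at 22°C, against 6.31 and 9.14 CPM. AKINbeta1, the SnRK1 subunit, had 133 and 127 CPM with DCMU and 126 and 162 CPM with DBMIB at 27°C, against 56.0 and 56.6 CPM in the mock, and 182 and 136 CPM with DCMU and 106 and 141 CPM with DBMIB at 22°C, against 75.1 and 67.9 CPM. At 27°C alone, TDT, the malate transporter of the vacuole, had 580 and 516 CPM with DCMU and 482 and 577 CPM with DBMIB, against 214 and 200 CPM in the mock. Its levels at 22°C are not given here. These 3 were picked after their values were seen. LNK2 and LHCB2.1 did not separate in this way, and LHCB2.1 had 2282 and 714 CPM with DCMU and 814 and 1326 CPM with DBMIB at 27°C, against 1485 and 1187 CPM in the mock.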

How the data were processed

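RNA-seq of Arabidopsis seedlings was deposited by the authors as whole-number read counts per gene for 60 libraries and as a table of TPM per gene and library. The submitters' processing notes name FastQC, Trimmomatic, TopHat and Picard and the TAIR10 build, and the counting tool and its strand setting are not given in the sources used here. The WT courses at 27°C and 22°C were used as deposited TPM, whose depth is unknown, and all other comparisons used the counts. Libraries were grouped by the labels. The 150 genes and all gene lists were chosen with earlier results of these data known.

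Counts were tested in R 4.3.3 with edgeR 4.0.16 (limma 3.58.1), using TMM, filterByExpr by group, glmQLFit and glmQLFTest, and Benjamini-Hochberg adjustment over all genes tested at 0.05. One fit held the 32 ss4-1 and WT libraries at 17°C, one the 16 libraries of WT and the starch mutants at ZT0 and ZT2, and one the 16 liquid culture libraries. Groups of a fit thus share one estimate of the spread. Swings were computed as ratios of (TPM + 1). The edgeR step was checked on simulated counts, where it recovered 94% to 100% of 4-fold changes and 36% to 70% of 2-fold changes. The simulated spread was set beforehand and not taken from the fits, so these shares need not hold for them. Alternatives were DESeq2 1.42.0, its size factors, no low-count filter, only the groups compared, the replicate number as a block, each replicate left out, other rankings of the genes and, added after the data were seen, leaving out organelle genes, the shallowest pgm library or the count scale. Genes were named if they were among the 10 largest swings, on a list, next to the limit, among up to 5 per contrast and direction with the smallest adjusted p and no overlap between libraries, or among the 5 farthest from dawn in WT at 17°C.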

Additional observations from a re-analysis of the deposited data

Results flagged for a closer look

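The change over the day differed between a mutant and WT by a test of the difference itself in 4 cases. Between ZT0 and ZT8 it differed in the libraries labelled ss4-1 for 1 of 140 genes, THA1. Between ZT0 and ZT2 it differed for 101 of 139 genes in pgm, for 77 in ss3/ss4 and for 98 in ss3/ss4/pgm, each set against the same WT libraries. Most of these changes were more negative in the mutant, 92 in pgm, 63 in ss3/ss4 and 89 in ss3/ss4/pgm. In liquid culture, the libraries labelled DCMU and DBMIB paired across the labels and not within them at both temperatures.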

How the results depend on the processing

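No alternative turned a call round. Of the counts of genes called, 198 stayed within 1.5 times and 58 did not, and the cause was not tested beyond what each setting removes. With DESeq2 the counts were 8 at ZT2 and 5 at ZT16 for ss4-1 over WT, 31 for DCMU and 17 for DBMIB at 22°C, 39 for DBMIB at 27°C and 5 for untreated seedlings at 27°C over 22°C. With no low-count filter they were 73 for ss4-1 ZT0 over ZT-4, and for ss4-1 over WT 9 at ZT-4, 7 at ZT0, 7 at ZT1, 35 at ZT2, 59 at ZT4, 7 at ZT8, 44 at ZT12, 40 at ZT16 and 7 for the difference in ZT8 over ZT0, with 6 for DCMU and 1 for DBMIB at 22°C. With only the groups compared they were 74 for WT ZT0 over ZT-4, and for ss4-1 over WT 9 at ZT0, 4 at ZT1, 7 at ZT2, 0 at ZT12, 39 at ZT16 and 2 for the difference in ZT8 over ZT0, with 0 for each of the 4 inhibitor comparisons and 63 for the untreated comparison. Leaving out organelle genes, chosen after seeing the data, gave 1 for DBMIB at 22°C and moved no other count by over 1.5 times. Leaving out 1 replicate gave 23 to 27 for WT ZT0 over ZT-4, 29 to 32 for ss4-1 ZT0 over ZT-4, and for ss4-1 over WT 0 to 0 at ZT0, 0 to 6 at ZT2, 0 to 20 at ZT4, 1 to 37 at ZT12, 0 to 0 at ZT16 and 0 to 0 for the difference in ZT8 over ZT0. It gave 43 to 58 for pgm at ZT2, 43 to 61 for ss3/ss4/pgm at ZT2, 49 to 63 for the ss3/ss4 difference in ZT2 over ZT0 and 0 to 0 for each inhibitor comparison. Of the median log2 changes, 221 stayed within the spread between replicates and 40 did not, 11 of them with the 75 genes of largest swing, 8 with the genes ranked at 27°C, 9 without replicate 2 and 7 without replicate 1. Without replicate 1 the median for DCMU at 22°C was 0.12, against 0.44 with both. The share of the genes highest at ZT0 at 17°C ranged from 45.7% to 58.0% in ss4-1 and from 60.0% to 63.8% in WT over other scalings, rankings and single replicates.

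The median correlation of same-numbered libraries' deviations was 0.050 in the ss4-1 and WT fit, 0.0013 in the starch mutant fit and 0.10 in the liquid culture fit. In these fits 29 of 120, 3 of 28 and 15 of 28 pairs of groups lay above 0.1, and 9, 2 and 4 below -0.1. In liquid culture the values ran from -0.90 to 0.90, so same-numbered libraries of some groups deviated strongly together or in opposite directions. With the replicate number as a block the counts were 6 for DCMU and 1 for DBMIB at 22°C, and no other count moved by over 1.5 times. Depth limits the genes with few counts, and 10 of the 150 genes had under 20% of the counts their TPM implied.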
